A study of Mus musculus with 12 samples.

Results

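Ependymal cells were picked out of sequenced single nuclei of the left hippocampus. The female animals were 3xTg-AD mice, which carry the human transgenes APPSwe and tauP301L on a mixed B6;129 background, and their WT littermates, at 6 and 12 months of age. The 12 libraries of sorted nuclei fell into 4 groups of 3, namely 6-month 3xTg-AD, 6-month WT, 12-month 3xTg-AD and 12-month WT, and a replicate number below is the sample number that GEO's titles give. The transgenes are driven by a neuronal promoter, that of Thy1, so that ependymal cells are not cells in which they are meant to be expressed. A nucleus was counted as ependymal if it had 500 to 10000 detected genes and at least 1 unique molecular identifier (UMI) of at least 4 of 7 genes, which were Foxj1, Dnah12, Cfap299, Spag17, Ccdc153, Tmem212 and Dnah11. It also had to have no UMI of Kl, Folr1 or Mog and at most 1 UMI of Slc17a7, Slc17a6, Gad1 and Gad2 together. Of 184957 nuclei with 500 to 10000 genes, 586 (0.317%) met this rule.

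Ependymal cells line the ventricles of the brain. Each carries a tuft of motile cilia, which move the cerebrospinal fluid, and the shaft of a motile cilium, the axoneme, is a ring of microtubule doublets around a central pair. Dynein arms on the doublets make it bend, and radial spokes, the central pair complex and the nexin-dynein regulatory complex coordinate the bending. The regulators Foxj1 and the RFX factors switch on genes of the motile cilium. The lateral ventricle borders the hippocampus, and the third ventricle lies beneath its dorsal part.

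The median ependymal nucleus had 2335 UMIs and 1469.5 detected genes, and the library medians of 2043 to 3252 UMIs were close to those of astrocytes, at 2239 to 3317, while those of all nuclei were 4345 to 6698.5. The ependymal nuclei of a library summed to 10500 to 273255 UMIs, and 10 of the 12 libraries had at least 10 such nuclei. A level is given as counts per 1000000 UMIs (CPM) of the summed nuclei of a cell class in a library, and its mean and SD are over these 10 libraries unless another n is stated. Retained nuclei of any pair of libraries shared 29 to 105 barcodes, 25 ependymal nuclei had a barcode that occurs in another library, and no barcode was ependymal in both. Over all nuclei, Xist stood at 941 to 1489 CPM in the 12 libraries, all labelled female. No doublet caller was run. Of the 586 ependymal nuclei, 85 had UMIs of at least 2 of the astrocyte genes Slc7a10, Slc39a12, Gpc5 and Rorb. At least 2 neuronal genes had UMIs in 29 nuclei, at least 2 oligodendrocyte genes in 17 and at least 2 microglial genes in 11.

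The rule genes chose the nuclei, and their values are therefore a description. Dnah12, an inner arm dynein heavy chain, had a UMI in 99.0% of the nuclei, Cfap299 in 99.1%, Dnah11 in 94.0%, Spag17, a central pair protein, in 87.5%, Tmem212 in 85.8%, Ccdc153 in 45.1% and Foxj1, the master regulator of motile ciliogenesis, in 21.3%. Among all other retained nuclei, the highest of these shares was 5.91%, for Cfap299, and the share for Tmem212 was 0.177%. At the limit of the rule, 109 nuclei had exactly 4 of the 7 genes, and 96 nuclei that met the other conditions had exactly 3. A further 141 nuclei had at least 4 of the genes and were left out because of neuronal, choroid plexus or oligodendrocyte UMIs. Markers of other cell types were then read, leaving out those that the rule itself holds down, which are Kl and Folr1 of the 7 choroid plexus genes and 4 of the 6 neuronal genes. Tmem72, Slc4a5, Kcnj13 and Otx2 also served to choose the choroid plexus nuclei, and Ttr did not. The 7 astrocyte genes likewise chose the astrocytes. The high levels of these genes in the 2 reference classes are therefore set in part by the choice. Ttr was at 35.6 ± 35.2 CPM in ependymal nuclei against 8224 CPM in the 453 nuclei counted as choroid plexus, and Tmem72, Slc4a5 and Kcnj13 were at 0.366, 1.90 and 6.75 CPM against 897, 445 and 384 CPM. Otx2, which is also a gene of the diencephalon, was at 98.3 ± 40.8 CPM against 567 CPM in choroid plexus and 9.69 CPM in all other nuclei. Astrocyte genes summed to 1335 ± 413 CPM (SD, n = 10) against 16759 ± 1227 CPM (SD, n = 12) in 19689 astrocytes. Not all 7 were low, since 3 had a higher mean level than in all other nuclei. A UMI of 4 of the 7 was seen in at least 20% of ependymal nuclei. Of the neuronal genes outside the rule, Snap25 was at 135 ± 42.2 CPM against 754 CPM in all other nuclei and Rbfox3 at 47.0 ± 40.5 CPM against 292 CPM. Tanycytes, the unciliated relatives of ependymal cells in the floor of the third ventricle, had 1 of 8 markers above 5% of nuclei, which was Col23a1 in 18.6%, while Rax was seen in 4 nuclei and Adm in none. Csf1r and Tmem119, markers of microglia, stood at 2.48 and 1.15 CPM, but Cx3cr1 was seen in 19.3% of ependymal nuclei, at 80.5 ± 24.5 CPM against 8.71 CPM in all other nuclei and 101 CPM in choroid plexus.

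The promoters of axonemal genes were compared first for a sequence feature that the rule did not use. RFX factors bind the X-box, whose first arm is searched here as GTTGCC and, with the start of the second arm, as GTTGCC followed by any 2 bases and GG, on both strands, and every match of the longer motif is also a match of the shorter one. In the RefSeq promoter windows of GRCm38.p6, which run from 250 bases before to 50 after a start site, GTTGCC occurred in 12.5% of all 32851 windows. It occurred in 40 of 85 windows (47.1%) of the 77 genes that matched among 97 axonemal and dynein assembly genes. The longer motif occurred in 2.25% of all windows and in 13 of these 85 (15.3%). The windows below belong to the 3 matching genes with the largest ratio of ependymal to other nuclei, and capitals mark the longer motif.
Spef2, chr15:9748819-9749118, minus strand: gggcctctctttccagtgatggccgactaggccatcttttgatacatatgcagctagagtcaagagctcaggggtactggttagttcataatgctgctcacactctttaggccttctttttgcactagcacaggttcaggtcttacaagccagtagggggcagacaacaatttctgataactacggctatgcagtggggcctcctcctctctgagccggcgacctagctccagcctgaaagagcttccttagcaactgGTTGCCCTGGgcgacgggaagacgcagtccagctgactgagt
Iqca, chr1:90153387-90153686, minus strand: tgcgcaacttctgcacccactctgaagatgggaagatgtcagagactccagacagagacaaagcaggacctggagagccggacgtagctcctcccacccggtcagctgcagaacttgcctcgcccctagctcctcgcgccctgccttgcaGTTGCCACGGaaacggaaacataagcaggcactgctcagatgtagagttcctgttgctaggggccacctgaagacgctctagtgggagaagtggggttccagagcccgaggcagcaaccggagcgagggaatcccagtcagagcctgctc
Dnah10, chr5:124724835-124725134, plus strand: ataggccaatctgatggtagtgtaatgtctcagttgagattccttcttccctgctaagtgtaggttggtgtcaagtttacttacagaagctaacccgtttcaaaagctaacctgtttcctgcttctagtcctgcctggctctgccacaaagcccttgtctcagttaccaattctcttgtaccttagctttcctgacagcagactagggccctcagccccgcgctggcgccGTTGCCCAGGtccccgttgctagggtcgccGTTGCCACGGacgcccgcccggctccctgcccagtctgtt
Spef2 encodes a central pair protein, Iqca a protein of the nexin-dynein regulatory complex and Dnah10 an inner arm heavy chain. With the start site at 0, the first match began at 8 in Spef2, at -100 in Iqca and at -20 in Dnah10, which held 2 matches. A match is a description of these letters and no evidence of binding.

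Genes of every part of the axoneme were detected. Of the 97 axonemal and assembly genes in the files, 93 had a higher mean level in ependymal nuclei than in all other retained nuclei, 65 were at least 10 times higher (with 5 CPM added to both levels), and 68 had a UMI in at least 20% of ependymal nuclei. Of all 32245 gene names, 1.06% were at least 10 times higher. The nuclei were chosen by cilium genes, so that these counts describe the class and are no test. The 4 genes that were seen in under 1% of the nuclei were Dnah8 and Dnah17, outer arm heavy chains known from sperm, Spag6, whose paralog Spag6l was at 503 ± 92.9 CPM, and Pih1d3, which had no UMI.

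Outer dynein arms drive the beat. Their heavy chains Dnah5 and Dnah9 stood at 639 ± 131 and 1280 ± 257 CPM (SD, n = 10), against 8.09 and 42.3 CPM in all other nuclei. The docking protein Armc4 was at 766 ± 123 CPM against 2.70 CPM, and the intermediate chains Dnaic1 and Dnaic2 were at 380 ± 92.2 and 77.5 ± 30.9 CPM against 5.23 and 1.55 CPM. All 12 genes of the inner dynein arms were above the other nuclei, 11 of them at least 10 times. Dnah6 was at 1155 ± 226 CPM against 7.20 CPM, Wdr63 at 709 ± 122 CPM against 1.53 CPM and Dnah3 at 753 ± 283 CPM against 1.77 CPM.

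Of the 15 radial spoke genes, 9 were at least 10 times higher, among them Cfap61 at 1076 ± 162 CPM against 8.97 CPM and Rsph4a at 130 ± 35.7 CPM against 1.37 CPM. The central pair genes summed to 12351 ± 1233 CPM in ependymal nuclei and 318 ± 51.4 CPM in all other nuclei. Hydin, whose loss leads to hydrocephalus in mice, was at 1093 ± 208 CPM against 5.88 CPM, and Spag16 was at 2687 ± 515 CPM against 23.7 CPM. The nexin-dynein genes Drc1 and Iqca stood at 263 ± 53.5 and 303 ± 70.1 CPM against 18.1 and 0.539 CPM. The list of proteins inside the doublet microtubules held 21 measured genes, and 14 of them were at least 10 times higher, with Cfap52 at 312 ± 53.1 CPM against 1.23 CPM and Enkur at 502 ± 36.9 CPM against 3.82 CPM. This list also held Cfap43 and Cfap44, which are known from the tether of an inner arm dynein on the outside of the doublet, at 984 ± 135 and 1276 ± 149 CPM against 4.34 and 19.4 CPM.

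The parts that other cells also use stood apart less. Of the 24 genes of intraflagellar transport, which builds primary and motile cilia alike, none was 10 times higher, and the median ratio was 2.98. Ift88 was at 443 ± 70.1 CPM against 72.4 CPM. Of the 16 regulators of ciliogenesis, 3 were at least 10 times higher, which were Rfx2 at 258 ± 43.0 CPM against 5.91 CPM, Myb at 92.9 ± 24.7 CPM against 1.88 CPM and Trp73 at 92.0 ± 25.5 CPM against 2.65 CPM. Rfx3 was at 1198 ± 212 CPM, against 491 CPM in astrocytes and 1320 CPM in choroid plexus. Of genes that drive the amplification of centrioles in developing multiciliated cells, Mcidas and Cdc20b had no UMI and Ccno 4 UMIs in 586 nuclei, while Deup1 was at 26.1 ± 16.6 CPM and in 42 nuclei, against 2.41 CPM in all other nuclei.

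**Figure D1:**
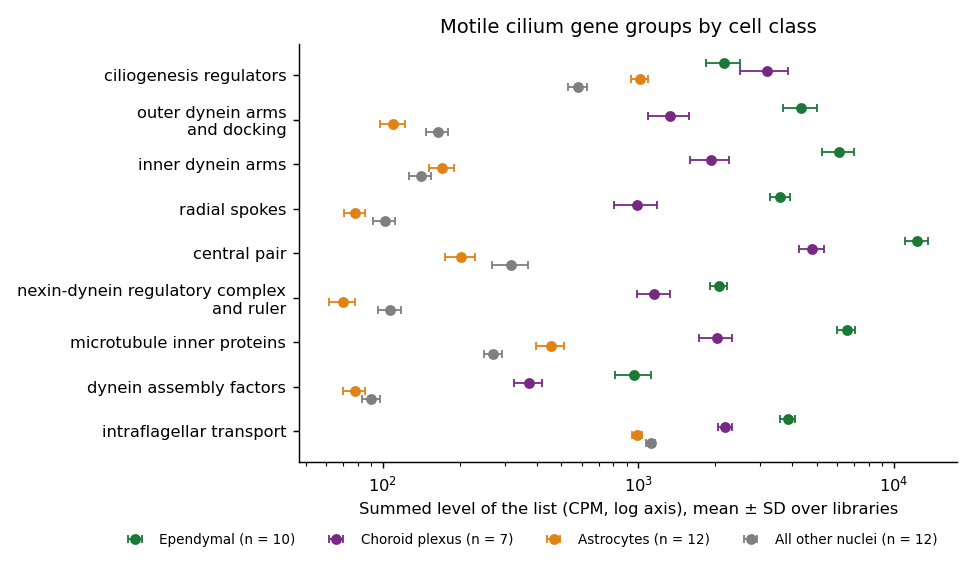
Summed level of each motile cilium gene group in CPM on a log axis, as mean ± SD over libraries, for ependymal nuclei, choroid plexus epithelium, astrocytes and all other nuclei. Choroid plexus lies between ependymal nuclei and the other classes in 8 of the 9 groups and above ependymal nuclei for the regulators, and for intraflagellar transport the classes lie closest together. Choroid plexus nuclei and astrocytes were chosen to carry few rule genes.

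Choroid plexus epithelium, which continues the ependyma over the choroid plexus, carried part of this programme. Its nuclei were chosen with at most 1 of the 7 rule genes, which are cilium genes. Lower levels of cilium genes in choroid plexus are therefore set in part by this choice, and the counts below are a description. Of the 97 axonemal and assembly genes, 67 were at least 2 times higher in ependymal nuclei than in choroid plexus (n = 7 libraries with at least 10 choroid plexus nuclei), and 1, Drc7, was at least 2 times lower, at 151 ± 46.1 against 515 CPM. The median ratio was 2.89. Spag16 stood at 1715 CPM and Wdr78 at 604 CPM in choroid plexus, near their ependymal levels of 2687 and 616 CPM. Another 6 genes were above 100 CPM in ependymal nuclei and under 10 CPM in choroid plexus. These were the heavy chains Dnah5, Dnah7a and Dnah10 and the genes Ccdc40, Iqca and Rp1. Gmnc, which starts the multiciliated programme upstream of Foxj1, was at 65.2 ± 26.2 CPM in ependymal nuclei and at 1256 CPM in choroid plexus.

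The 25 genes with the largest ratio to all other nuclei, the rule genes left out, were led by Wdr49, at 1256 ± 276 CPM and in 87.0% of nuclei, against 1.42 CPM in all other nuclei. The next were 3300002A11Rik, 2010001K21Rik, Lrrc36, Ccdc146 and C230072F16Rik. Of the 25, 8 belong to the axonemal lists, and 11 were under 10 CPM in choroid plexus, among them Wdr49, Rgs22, Dthd1, Ttc29, Cdhr3, Frmpd2 and Ccdc180. One of the 25, Sspo, had a UMI in just 14.5% of the nuclei and an SD above its mean, at 919 ± 1191 CPM.

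Genes of the ependymal surface, junctions and transport stood apart less, with 20 of 26 above all other nuclei and 4 at least 10 times. Aqp4, the water channel, was at 156 ± 40.6 CPM against 278 CPM in astrocytes, and Gja1, a gap junction protein, at 141 ± 44.5 CPM against 343 CPM. The glutamate transporter Slc1a3 was at 238 ± 160 CPM against 1738 CPM in astrocytes. Rarres2, which encodes chemerin, was at 156 ± 52.4 CPM against 9.42 CPM in astrocytes, Vim, an intermediate filament, at 66.0 ± 40.6 against 4.25 CPM, and Dbi at 271 ± 65.4 against 62.1 CPM. The endocytic receptor Lrp2 was at 36.3 ± 23.5 CPM against 1.00 CPM in astrocytes. Nnat, an imprinted gene of the developing brain, varied within groups, with 838, 1244 and 3629 CPM in the 6-month 3xTg-AD libraries and 1002, 1347 and 2177 CPM in the 6-month WT libraries.

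Genes that mark the position of a cell along the brain axis were examined, since the ventricles near the hippocampus belong to different divisions. Emx2 and Emx1, transcription factors of the dorsal telencephalon, which includes the hippocampus, had 7 and 4 UMIs among all ependymal nuclei, and Emx2 was at 3.23 ± 4.38 CPM against 12.0 CPM in astrocytes. Of 11 genes known from the diencephalon and neighbouring regions, 4 were seen in at least 5% of the nuclei, which were Tcf7l2 in 40.3%, Otx2 in 19.8%, Irx5 in 10.1% and Barhl2 in 5.80%. Barhl2 was at 21.4 ± 12.8 CPM against 2.49 CPM in astrocytes, and Tcf7l2 at 248 ± 65.0 against 623 CPM. Zic1 and Zic4, chosen after their values were seen, were in 142 and 205 of the nuclei. Markers of the floor of the diencephalon were rare, with Nkx2-1 in 12 nuclei and no UMI of Six6.

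Sspo divided the ependymal nuclei. It encodes SCO-spondin, a large glycoprotein that the subcommissural organ, a patch of ependyma at the roof of the third ventricle, secretes into the cerebrospinal fluid. Of the 586 nuclei, 501 had no Sspo UMI, 16 had 1 to 4, and 69 (11.8%) had 7 to 56, with a median of 25. No nucleus had 5 or 6. For comparison, 68 of 19689 astrocytes (0.345%) had a Sspo UMI. The line was drawn at 5 UMIs after these values were seen, so that the Sspo-high nuclei are described without tests and are not named as a cell type. A further 37 retained nuclei reached 5 Sspo UMIs without being counted as ependymal, since 18 had fewer than 4 rule genes and 19 failed the other conditions.

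**Figure D2:**
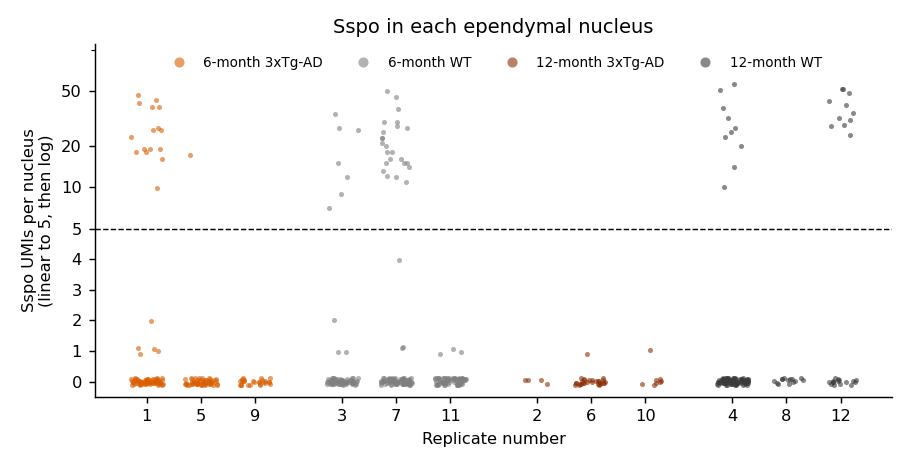
Sspo UMIs in each of the 586 ependymal nuclei by library, on an axis that is linear to 5 and logarithmic above, with a small random offset so that points do not overlap. The 69 nuclei above the dashed line at 5 UMIs come from 6 libraries, and a gap separates them from the other 517.

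The Sspo-high nuclei were unevenly spread over the libraries. They made up 16 of 84, 1 of 53 and 0 of 27 ependymal nuclei in the 6-month 3xTg-AD replicates 1, 5 and 9, and 7 of 68, 24 of 106 and 0 of 72 in the 6-month WT replicates 3, 7 and 11. In the 12-month WT replicates 4, 8 and 12, they were 10 of 94, 0 of 14 and 11 of 27. In the 12-month 3xTg-AD replicates 2, 6 and 10, they were 0 of 4, 0 of 29 and 0 of 8, with upper 95% Wilson limits for counting error of 49.0%, 11.7% and 32.4% in these libraries. Each of the other groups had 2 libraries with such nuclei and 1 without, so that libraries of the same group differed from none to 40.7%.

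Within the 5 libraries with at least 5 of them, 68 Sspo-high nuclei were compared with 311 other ependymal nuclei. The Sspo-high nuclei were deeper, with a median of 3239 UMIs against 2257 over all 12 libraries. Npsr1, the neuropeptide S receptor, had a UMI in 68 of all 69 Sspo-high nuclei and in 4 of the other 517, and in the 5 libraries it was at 2437 against 2.35 CPM. Cdh20 was at 2914 against 68.0 CPM, Bmpr1b, a BMP receptor, at 2571 against 62.1 CPM and Sntb1 at 1752 against 30.5 CPM. These 4 are among the 25 genes with the largest ratio, which were chosen for it in these same libraries. The transcription factor Spdef was seen in 37 of 69 against 1 of 517 nuclei, Pax3 in 56 of 69 against 28 of 517, and Lmx1b in 45 of 69 against 24 of 517. Prom1, which encodes the membrane protein prominin-1, was seen in 35 of 69 against 11 of 517, and the metalloprotease Mme in 21 of 69 against 3 of 517.

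The Sspo-high nuclei had no UMI of some axonemal genes that the other nuclei carried. Dnah3, an inner arm heavy chain, had no UMI in 69 of 69 Sspo-high nuclei and a UMI in 382 of the other 517 (73.9%). At 828 CPM in the other nuclei of the 5 libraries, it was at least 78.1-fold lower in the Sspo-high nuclei, where 3 UMIs in the group of 283105 would give 10.6 CPM. Rp1, a protein that binds axonemal microtubules, was in 0 of 69 and 171 of 517 nuclei and at least 24.6-fold lower, and Sntn, which encodes sentan, a protein of the ciliary tip, was in 0 of 69 and 143 of 517. Of the rule genes, Ccdc153 was in 8 of 69 against 256 of 517 nuclei and Tmem212 in 40 of 69 against 463 of 517. Other components were seen in like shares of both, though the Sspo-high nuclei were deeper. Both sets were chosen by the rule genes, which are cilium genes and include Foxj1. The rule had left out 18 nuclei that reached the Sspo line with too few rule genes. Like shares of cilium genes are therefore set in part by this choice and are a description. Dnah5 was in 81.2% of Sspo-high and 76.4% of other nuclei, Dnah9 in 89.9% and 90.7%, Hydin in 87.0% and 87.6%, and Foxj1 in 26.1% and 20.7%. By level, Dnah5 was at 459 against 768 CPM and Hydin at 781 against 1286 CPM in the 5 libraries. Of the 97 axonemal and assembly genes, 22 were at or under 0.5 times the level of the other nuclei and 2 were at least 2 times above it, with a median ratio of 0.718 against 0.953 over 2676 genes with at least 100 CPM in either. The 97 genes summed to 26192 ± 6637 CPM in the Sspo-high nuclei and 38199 ± 2449 CPM in the others (SD, n = 5).

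**Figure D3:**
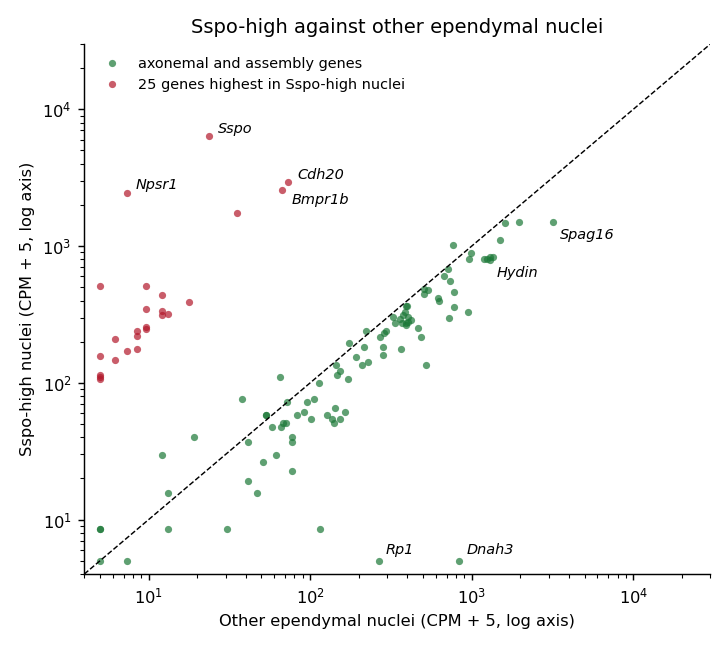
Pooled level in 68 Sspo-high nuclei against that in 311 other ependymal nuclei of the same 5 libraries, in CPM with 5 added, on log axes, for axonemal and assembly genes and for the 25 genes with the largest ratio. Most axonemal genes lie a little under the diagonal, while Dnah3 and Rp1 lie at the lower limit and Sspo, Npsr1, Cdh20 and Bmpr1b far above the diagonal.

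Nnat and Adamts20 were lower with Sspo. Nnat was in 15 of 69 Sspo-high and 383 of 517 other nuclei, and Adamts20 was at 477 against 2503 CPM in the 5 libraries. The shares of position genes given above were pooled over Sspo-high and other nuclei, and some differed between them. Otx2 was in 31 of 69 Sspo-high and 85 of 517 other nuclei. In the 5 libraries, Irx5 was in 22.1% of Sspo-high and 9.32% of other nuclei, and Barhl2 in 0% and 7.07%. Among the 517 other nuclei, Zic4 did not part the position genes cleanly. Zic4 was seen in 163 of them, with Zic1 in 28.8% of these and in 16.4% of the 354 without Zic4, and with Six3 in 1.84% and 5.08%. The median depth was 2498 UMIs with and 2191 without a Zic4 UMI.

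The share of ependymal cells was compared between ages and genotypes. In the 6-month libraries it was 0.593%, 0.335% and 0.151% of retained nuclei for 3xTg-AD replicates 1, 5 and 9 and 0.561%, 0.663% and 0.456% for WT replicates 3, 7 and 11. In the 12-month libraries it was 0.0266%, 0.185% and 0.0404% for 3xTg-AD replicates 2, 6 and 10 and 0.521%, 0.106% and 0.238% for WT replicates 4, 8 and 12. The lowest 2 shares were those of 12-month 3xTg-AD replicates 2 and 10, though WT replicate 8 lay below 3xTg-AD replicate 6, and the ranges of all groups but those of 6-month WT and 12-month 3xTg-AD overlapped. The lowest share rests on 4 nuclei, with a 95% Wilson interval of 0.0103% to 0.0683% for counting error.

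By age, the share averaged 0.186% ± 0.183 in 12-month and 0.460% ± 0.190 in 6-month libraries (SD, n = 6 each). The difference, -0.274 percentage points, was tested by two-sided exact permutation over all 12 libraries, not stratified by genotype. It did not pass once adjusted over the 3 share comparisons (exact permutation, p = 0.0368, adjusted p = 0.110). It had the same sign in both genotypes, at -0.276 in 3xTg-AD and -0.272 in WT. Between genotypes, the 3xTg-AD libraries averaged 0.222% ± 0.214 and the WT libraries 0.424% ± 0.211 (n = 6 each, p = 0.130 by exact permutation, adjusted p = 0.195). Between the 2 ages, the genotype differences were apart by -0.00399 percentage points (p = 0.98 by exact permutation, adjusted p = 0.98). Without 6-month 3xTg-AD replicate 9 or without 12-month WT replicate 4, the age comparison passed (exact permutation, adjusted p = 0.0390 in each case). Markers of neighbouring tissue also differed between these libraries, and their part in the shares was not tested. Choroid plexus nuclei ranged from 0.00756% to 0.832% of a library. Their mean share, like that of ependymal nuclei, was lower in 3xTg-AD than in WT and lower at 12 months in both genotypes. It was 0.199% against 0.388% at 6 months and 0.127% against 0.273% at 12 months. Within groups, the 2 shares did not always run together. In 6-month 3xTg-AD replicates 1, 5 and 9, choroid plexus rose, at 0.0635%, 0.126% and 0.408%, where the ependymal share fell. The highest choroid plexus share, 0.832%, was that of 6-month WT replicate 7, beside 0.00825% in replicate 3. In 6-month WT replicate 7 and 12-month 3xTg-AD replicate 6, both shares were the highest of the group. Drd1, a gene of striatal neurons, ranged from 2.17 to 21.4 CPM over all nuclei, with 2.17 to 3.68 CPM in 12-month WT and 6.67 to 21.4 CPM in 12-month 3xTg-AD libraries. At 6 months, Drd1 was at 6.66 to 17.4 CPM in WT and at 4.27 to 11.2 CPM in 3xTg-AD libraries.

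**Figure D4:**
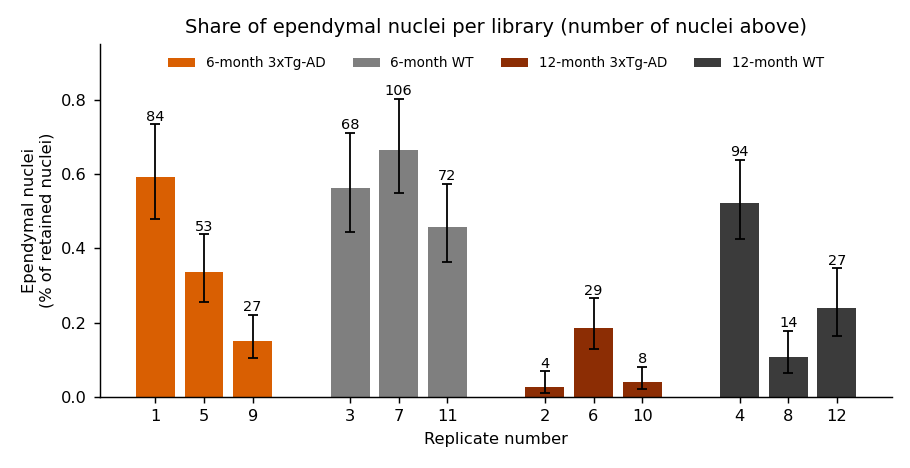
Ependymal nuclei as a percentage of retained nuclei in each library, with 95% Wilson intervals for counting error and the number of ependymal nuclei above each bar. Shares within a group range from 0.151% to 0.593% in 6-month 3xTg-AD and from 0.106% to 0.521% in 12-month WT, where the intervals of the extremes do not overlap.

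Expression in ependymal cells was then compared between genotypes and ages in the 10 libraries with at least 10 ependymal nuclei, by edgeR on counts summed per library. The call rule asked for a log2 fold change above 0.2 in size and a Benjamini-Hochberg adjusted p below 0.05. By this rule, 0 genes (0%) were called in each of the 5 comparisons. Between 3xTg-AD and WT, 4349 genes were tested at 6 months, 3388 at 12 months and 4724 over both ages, and 198 (4.55%), 162 (4.78%) and 205 (4.34%) had an unadjusted p under 0.05. Between 12 and 6 months, 186 of 4724 (3.94%) did, and in the test of the difference between ages in the genotype effect 315 of 5958 (5.29%). DESeq2 called 1 gene at 6 months, 1 gene between ages and 0 in the other 3 comparisons. At 12 months, 1 3xTg-AD library, replicate 6, was compared with 3 WT libraries and was assumed to vary like these. Its count rests on single WT libraries, since 18, 1 and 8 genes were called without WT replicate 4, 8 or 12, and between ages 1 gene was called without 6-month WT replicate 7. With no minimum of nuclei, 3 libraries of each genotype could be compared at 12 months, and edgeR called 0 of 1455 genes, with 97 at an unadjusted p under 0.05. Counts were also simulated at the same depth, with 1 fixed dispersion for all genes that was not estimated from these data. In them, edgeR recovered 70% of genes changed by 2 on the log2 scale and 7% of those changed by 1 at 6 months. At 12 months, edgeR recovered 15% and 1%. It recovered 80% and 23% for genotype over both ages, 84% and 17% between ages, and 6% and 0% for genotype by age. At this dispersion, changes of 1 on the log2 scale were mostly missed in all 5 comparisons. Changes of 2 were mostly missed at 12 months and for genotype by age. Recovery at the dispersion of the real counts was not tested.

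Genes of the cilium were then compared between groups. Of the 97 axonemal and assembly genes, 81 passed the filter on low counts at 6 months, and their median log2 fold change between 3xTg-AD and WT was -0.03, beside -1.3e-05 over all genes tested. An unadjusted p under 0.05 was seen for 1 higher and 4 lower genes, beside 2.18% and 2.37% of all genes in these directions. At 12 months, the median over 73 genes was 0.13, beside -0.05 over all genes, and 0 of them had an unadjusted p under 0.05, beside 1.65% of all genes higher and 3.13% lower. Over both ages, it was 0.03 for 83 genes, and between 12 and 6 months it was -0.09, beside 9.0e-04 and 0.0030 over all genes. Between genotypes over both ages, 1 higher and 0 lower cilium genes were under 0.05, beside 1.86% and 2.48% of all genes, between ages 1 and 1, beside 1.99% and 1.95%, and in the genotype by age test 1 and 0, beside 2.37% and 2.92%. In the latter test, the median over 86 cilium genes was 0.20, beside -0.08 over all genes. There, 55 cilium genes were above and 31 below 0, beside 2768 and 3190 of all genes. At 12 months, 49 were above and 24 below, beside 1605 and 1783 of all genes. Between ages these counts were 28 and 55, beside 2382 and 2342. At 6 months they were 34 and 47, beside 2174 and 2175, and over both ages 44 and 39, beside 2368 and 2356. Hydin, for example, had a log2 fold change of -0.03 ± 0.23 (SE) at 6 months and Dnah5 of -0.03 ± 0.18 (edgeR, adjusted p = 1.00 for both). The intraflagellar transport genes had a median of -0.09 over 20 genes at 6 months and of 0.32 over 16 genes at 12 months. Dnah3 was higher in 3xTg-AD replicate 6, at 1149 CPM, than in the 12-month WT libraries, at 709, 632 and 151 CPM. The last of these belonged to replicate 12, where 11 of 27 nuclei were Sspo-high. In the nuclei that were not Sspo-high, Dnah3 was at 341 CPM in WT replicate 12 and at 842 CPM in WT replicate 4. The part of the Sspo-high nuclei in these differences was not tested.

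**Figure D5:**
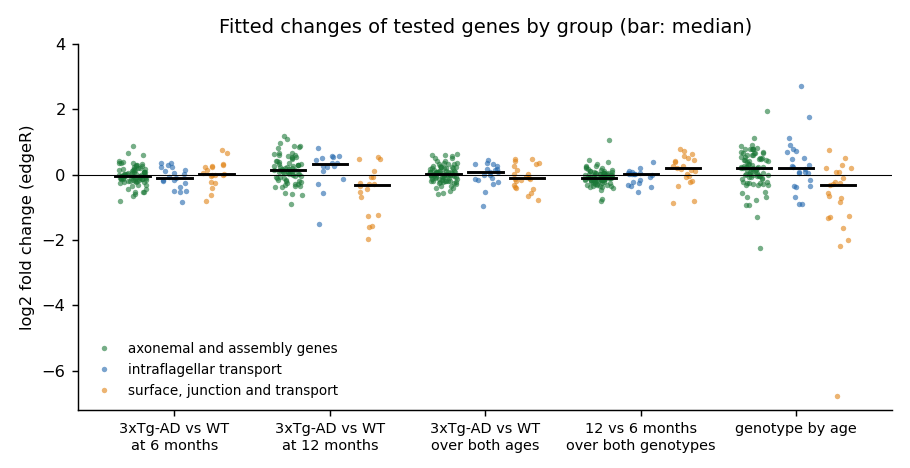
Fitted log2 fold change of each tested gene in 3 groups and 5 comparisons, with the median of each group as a bar. Axonemal genes lie on both sides of 0 in each comparison, with more above 0 at 12 months and in the genotype by age test and more below 0 between ages. They spread most widely at 12 months and in the genotype by age test, which rest on 1 12-month 3xTg-AD library.

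Genes of the surface and transport list had a median log2 fold change of 0.02 over 19 genes at 6 months, of -0.32 over 18 genes at 12 months and of 0.19 over 22 genes between ages, each beside medians of all genes of at most 0.05 in size. An unadjusted p under 0.05 was seen for 1 of the 19 at 6 months, beside 4.55% of all genes, for 2 of the 18 at 12 months, both lower, beside 3.13%, and for 0 of 22 over both ages. Between ages, 1 higher and 2 lower of the 22 were under 0.05, beside 1.99% and 1.95%, and in the genotype by age test 2 lower of 23, beside 2.92%. Clu was higher at 12 months by 0.73 ± 0.32 (SE, edgeR, adjusted p = 1.00) and Nnat lower, at -0.81 ± 0.35 (adjusted p = 1.00), and neither passed. Of the genes for the handling of amyloid and tau, 9 were tested at 6 months, with a median of 0.01, and 1 had an unadjusted p under 0.05, in the lower direction, beside 2.37% of all genes. App stood at 245, 277 and 349 CPM in 6-month 3xTg-AD and at 249, 245 and 268 CPM in 6-month WT libraries, and its log2 fold change was 0.15 ± 0.22 (SE, edgeR, adjusted p = 0.997). Of the 10 reactive glia genes and the 12 genes of antigen presentation and interferon, 1 and 0 passed the filter at 6 months, so that they were mostly too low to test.

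The genes with the smallest p are named after their values were seen. At 6 months, AC149090.1 was at 116, 146 and 69.8 CPM in 3xTg-AD and at 347, 501 and 634 CPM in WT libraries, without overlap. Its log2 fold change was -2.09 ± 0.31 (SE, edgeR, adjusted p = 0.0993), and DESeq2 called it (adjusted p = 6.31e-04). Astrocytes of the same libraries had 90.3 to 132 CPM in 3xTg-AD and 352 to 488 CPM in WT, so that the difference was not limited to ependymal nuclei. At 12 months, AC149090.1 was at 239 CPM in 3xTg-AD replicate 6 and at 343, 117 and 226 CPM in the WT libraries, which overlapped. Bmp6, a secreted ligand of the BMP family, was at 187, 211 and 167 CPM in 3xTg-AD and at 441, 362 and 495 CPM in WT libraries at 6 months, without overlap (log2 fold change -1.18 ± 0.23, SE, edgeR, adjusted p = 0.525). Astrocytes at 6 months had 15.8 to 19.9 CPM of Bmp6 in 3xTg-AD and 27.3 to 39.0 CPM in WT, also without overlap. At 12 months, ependymal Bmp6 was at 546 CPM in 3xTg-AD replicate 6 and at 280, 93.6 and 193 CPM in the WT libraries, the opposite order. The difference between the ages was 2.52 ± 0.53 (SE, edgeR, adjusted p = 0.701).

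Rnf152, an E3 ubiquitin ligase of the lysosome, had the smallest p between genotypes over both ages, with a log2 fold change of 1.70 ± 0.35 (SE, edgeR, adjusted p = 0.527). It was at 143, 160 and 55.8 CPM in 6-month 3xTg-AD and at 67.8, 25.6 and 34.9 CPM in 6-month WT libraries, which overlapped. Astrocytes had 41.4 to 43.1 CPM of Rnf152 in 6-month 3xTg-AD and 9.08 to 14.2 CPM in 6-month WT libraries, and all nuclei together had 218 to 241 CPM and 49.0 to 74.8 CPM. Without the ependymal nuclei that had markers of another cell type, the log2 fold change of Rnf152 was 1.10, the lowest of its alternatives, which reached 2.06. The part of free RNA from other cells in it was not tested. Between ages, Cdh18, a cadherin, was at 122 to 339 CPM in the 6-month libraries and at 603, 701, 444 and 2398 CPM in the 12-month libraries tested, without overlap. Its log2 fold change was 2.07 ± 0.44 (SE, edgeR, adjusted p = 0.346), and DESeq2 called it (adjusted p = 0.0475). Gm36640 was at 27.9 to 161 CPM at 6 months and 0 to 11.8 CPM at 12 months in the libraries tested, with a log2 fold change of -3.58 ± 0.71 (SE, edgeR, adjusted p = 0.346).

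Sspo and Npsr1 were among the 12 genes with the smallest p at 12 months, and neither passed there (edgeR, adjusted p = 0.265). Both passed, lower in 3xTg-AD replicate 6, in 5 of 10 alternatives, which were no filter on low counts, at least 5 markers, no nuclei with markers of another cell type, and leaving out WT replicate 4 or 12, and the adjusted p of Sspo ranged from 1.1e-10 without WT replicate 4 (edgeR) to 0.999 (DESeq2). Sspo was at 11.4 CPM in 3xTg-AD replicate 6 and at 1166, 0 and 3455 CPM in WT replicates 4, 8 and 12, and Npsr1 was at 0 CPM in the former and in WT replicate 8 and at 1644 CPM in WT replicate 12. Both were therefore no higher in WT replicate 8 than in the 3xTg-AD library. Among the 10 alternatives, at least 20 nuclei and leaving out WT replicate 8 were the same fit, in which neither gene passed. The Sspo-high nuclei were 0 of 29 in 3xTg-AD replicate 6 and 10 of 94, 0 of 14 and 11 of 27 in the WT libraries. At 12 months, edgeR called 0 genes with and without the Sspo-high nuclei, and 162 of 3388 and 98 of 2393 genes had an unadjusted p under 0.05. With 1 3xTg-AD library in this comparison, the genotype and the library cannot be told apart.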

How the data were processed

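Nuclei from the left hippocampus were sorted and sequenced with 10x Genomics 3′ chemistry, 1 library per sample. Per the labels and the study's methods, the authors aligned reads to mm10 with Cell Ranger 6.1.1 and deposited filtered matrices of raw UMI counts per gene and nucleus. The study removed ambient RNA with soupX in later steps, and none was removed here. Libraries held 79177051 to 128323908 UMIs. Groups came from GEO's labels, and per the study's methods the 12 libraries came from 12 mice, 3 per group, and were sequenced as 1 batch.

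Counts of ependymal nuclei were summed per library and tested with edgeR 4.0.16 (quasi-likelihood test, TMM, filterByExpr, Benjamini-Hochberg), and DESeq2 1.42.0 was the alternative. A comparison over both ages had age, or genotype, as covariate. Shares were compared by two-sided exact permutation over libraries. The age test was not stratified by genotype, nor the genotype test by age. For the difference between ages in the genotype effect, genotypes were permuted within ages. Astrocytes had at least 4 of 7, and choroid plexus nuclei at least 4 of 6, of their markers. Both also had no Mog UMI, at most 1 neuronal UMI and at most 1 rule gene. Tests were checked on simulated counts. Members and gene lists were chosen with earlier results of these data known. Genes named are those of the lists, the 25 of largest ratio to other nuclei (at least 100 CPM, 5 CPM added), called genes, label checks, and others named as seen afterwards. Alternatives were marker minimums, other filters and normalizations, thinning to 2000 UMIs, removal of nuclei with foreign markers, and each library left out. Some items of the lists and label checks are not reported here.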

Additional observations from a re-analysis of the deposited data

How the results depend on the processing

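The lower share at 12 months and the lower share in 3xTg-AD kept their direction under each alternative run, and neither passed after adjustment except for age in the cases below. With 1 library left out, the age difference was -0.341 to -0.233 percentage points (exact permutation, adjusted p = 0.0390 to 0.214), the genotype difference -0.277 to -0.155 and the difference between ages in the genotype effect -0.108 to 0.113. The age comparison passed without 6-month 3xTg-AD replicate 9 and without 12-month WT replicate 4. The difference between ages in the genotype effect, near 0, turned positive with at least 3 markers (0.0235), at least 5 markers (0.0310), nuclei thinned to 2000 UMIs (0.0436) and without Sspo-high nuclei (0.0172), an alternative added after seeing the data.

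Against 0 called genes, edgeR without a filter on low counts called 9 genes between genotypes at 6 months, 7 at 12 months, 16 over both ages, 11 between ages and 8 in the genotype by age test. DESeq2 called 1 at 6 months (AC149090.1) and 1 between ages (Cdh18). At 12 months, where 1 library stands for 3xTg-AD, at least 5 markers, which also left WT replicate 8 under 10 nuclei and out of the fit, gave 16, removal of nuclei with markers of another cell type 18 and at least 20 nuclei 1. Leaving out a 12-month WT library gave 1 to 18, which were 18 without replicate 4, 1 without replicate 8 and 8 without replicate 12, Sspo, Npsr1 and Cdh20 being among the 16, the 18 of both settings and the 8, and 3xTg-AD replicate 6 could not be left out, nor from the genotype by age test. The minimum of 20 nuclei left out just WT replicate 8 at 12 months, so that this setting and the one without replicate 8 are the same fit. With no minimum of nuclei, 3 libraries per group gave 0 of 1455 genes. Between ages, at least 5 markers gave 1 (Cdh18), and leaving out a library gave 0 to 1, which was 1 (Pcdh11x) without 6-month WT replicate 7. Without Sspo-high nuclei, 1 gene (Bmp6) was called in the genotype by age test. The cause of these changes was not tested. No paired analysis was possible because the groups share no replicate numbers. Depth limits these results, with 4 to 106 ependymal nuclei per library.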
